A study of Mus musculus with 5 samples.

Results

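Forkhead transcription factor genes were followed in RNA of hair follicle stem cells sorted from mouse back skin, comparing induced loss of Polycomb repressive complex 1 (PRC1) with controls. They were 10 genes chosen by symbol (Foxc1, Foxc2, Foxd1, Foxf1, Foxf2, Foxl2, Foxn1, Foxp1, Foxq1 and Foxi3), and all 10 were found among the 30840 features of the deposited table. PRC1 places ubiquitin on histone H2A through Ring1a or Ring1b, and the series relates that mark to stem cell quiescence. Every mouse, controls included, was Ring1a-/- and Ring1bflox/flox and had 1% RU-486 applied daily for 10 days starting at postnatal day 50, with skin taken at postnatal day 70. In addition, the 3 PRC1 i2KO samples had the K15-CrePR1 transgene, whose Cre is driven by a keratin 15 promoter and activated by RU-486. The 2 Control samples lacked this transgene, so transgene and deletion cannot be told apart, and Control here means loss of Ring1a alone. Cells were gated as EpCAM positive, Sca1 negative, high for α6-integrin and CD34 positive, and 50000 cells were used per sample.

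Forkhead proteins bind DNA through a winged-helix domain and act as transcription factors in development and in adult tissues. In the hair follicle, Foxc1 and Foxp1 are known for holding bulge stem cells in quiescence, and Foxn1, Foxq1 and Foxi3 are known for roles in growing and differentiating hair. Foxf1, Foxf2, Foxc2, Foxd1 and Foxl2 are known mainly from mesoderm, mesenchyme, vessels, kidney or ovary. Many such developmental regulators are Polycomb targets in cells that do not use them.

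The 5 libraries held between 11626006 and 43307694 counts, and 1 count stood for 0.0203 to 0.0793 CPM (counts scaled to a common TMM-normalised library size). The bulge markers Krt15 (3418 to 5076 CPM), Itga6 (285 to 345 CPM) and Sox9 (461 to 586 CPM) were expressed in every library with overlapping groups, while Cd34, used in the sort, was at 477 and 326 CPM in Control and at 298, 292 and 164 CPM in PRC1 i2KO. Of the 22 bulge markers listed, 8 lay below both controls in every PRC1 i2KO library (Cd34, Lgr5, Lhx2, Tcf7l2, Nfib, Postn, Fgf18 and Grem1) and 2 above (Gli1 and Krt14). Of all genes tested, 15.3% lay below and 14.6% above in this way. None of the 22 was called by edgeR, and their median log2 fold change was -0.07. At an unadjusted p under 0.05, 2 were higher and 6 lower, beside 7.43% and 3.51% of all genes tested. Grem1 (adjusted p = 0.172), Fgf18 (0.188), Krt14 (0.240) and Lhx2 (0.349) had the smallest p. Ly6a, which encodes Sca1, was at 1.62 and 0.793 CPM in Control 2 and 3 and at 3.12, 4.78 and 4.93 CPM in PRC1 i2KO 1, 2 and 3 (edgeR adjusted p = 0.398). Rnf2, which encodes Ring1b, was at 27.7 and 37.5 CPM in Control and at 39.9, 33.1 and 36.4 CPM in PRC1 i2KO. A gene-level count pools deleted and kept exons and does not check the labels. Mitochondrial ribosomal RNA took 16.7% and 22.6% of counts in Control and 29.7%, 21.4% and 32.0% in PRC1 i2KO. In bulk RNA, fewer cells of a type and less RNA per cell cannot be told apart.

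The 10 genes fell into a pair expressed strongly in every library, a pair at a few CPM in Control, and 6 genes with a control mean below 1 CPM. None passed the test between PRC1 i2KO and Control (edgeR quasi-likelihood, adjusted p under 0.05). Across all 22181 genes tested, 0.126% passed as higher and 0% as lower. Of the 10 genes, 8 passed the filter on low counts and were tested. Foxd1 and Foxl2 did not pass it, and Foxf1 and Foxf2 passed only through PRC1 i2KO libraries, so those 2 could enter the test only if they were higher there. Of the 8, 4 had an unadjusted p under 0.05, each higher in PRC1 i2KO and none lower, beside 7.43% higher and 3.51% lower of all genes tested. Foxf1 and Foxf2 are among these 4. Of the 618 tested genes that passed the filter only through PRC1 i2KO libraries, 311 were higher at that p. The same 4 genes (Foxc2, Foxf1, Foxf2 and Foxq1) had each PRC1 i2KO value above both control values, as did 14.6% of all genes tested and 13.8% of tested genes with a control mean below 1 CPM. By DESeq2 these 4 passed, where 3.57% of genes passed as higher, and by edgeR with no filter on low counts Foxf2 and Foxc2 passed, where 0.457% did. The median log2 fold change of the 8 was 2.56, against 0.01 for all genes tested. Foxf1 and Foxf2 enter this median, so neither it nor the count of higher genes among the 8 gives support for a shift.

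**Figure D1:**
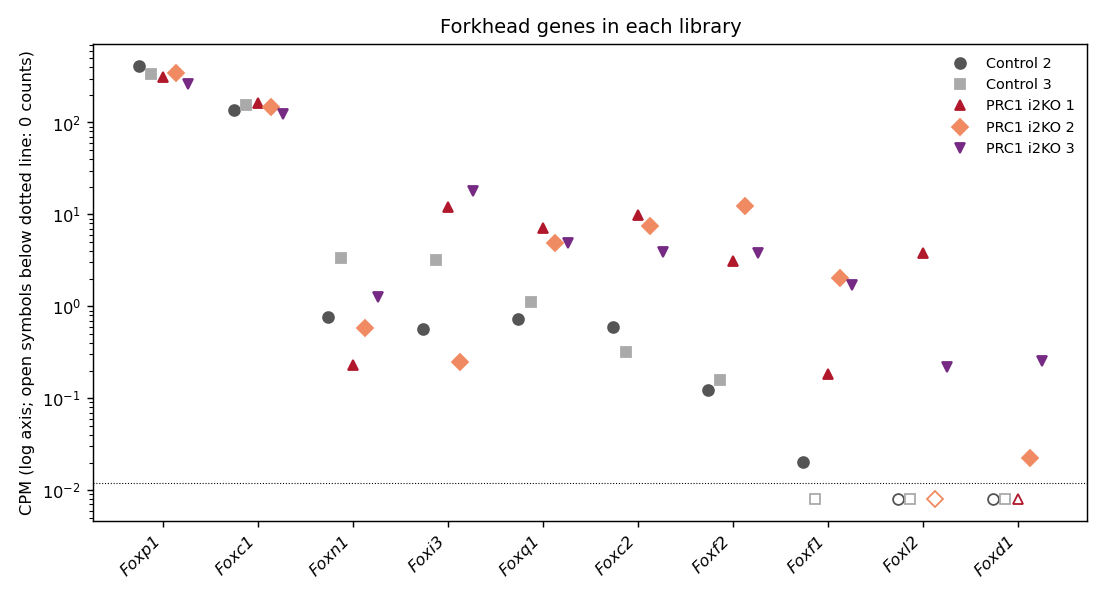
CPM of the 10 forkhead genes (log axis), with a symbol for each of the 2 Control and 3 PRC1 i2KO libraries and open symbols below the dotted line for 0 counts. Foxp1 and Foxc1 sit above 100 CPM in all 5 libraries, while Foxq1, Foxc2, Foxf2 and Foxf1 are separated by group and Foxi3, Foxn1 and Foxl2 are scattered within PRC1 i2KO.

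Foxc1 (ENSMUSG00000050295.4) did not differ detectably between the groups. It was at 138 and 153 CPM in Control 2 and 3 and at 161, 146 and 124 CPM in PRC1 i2KO 1, 2 and 3. Both control values lay inside the range of the PRC1 i2KO values. The log2 fold change was -0.02 ± 0.18 (SE; edgeR adjusted p = 0.984), with a 95% interval from 0.738-fold to 1.32-fold. On the log2(TPM + 1) scale, where TPM is scaled for transcript length, it was -0.31 (limma adjusted p = 0.721), or -0.07 beside the median of -0.25 for all genes on that scale.

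Foxp1 (ENSMUSG00000030067.17), a repressor, was the most abundant of the 10 genes. It was at 415 and 337 CPM in Control 2 and 3 and at 312, 341 and 263 CPM in PRC1 i2KO 1, 2 and 3. PRC1 i2KO 1 and 3 lay below both controls, while PRC1 i2KO 2 lay between them. The means were 376 ± 54.8 CPM (SD, n = 2) and 305 ± 39.4 CPM (SD, n = 3), and the log2 fold change of -0.30 ± 0.18 (SE) did not pass (edgeR adjusted p = 0.600). The 95% interval ran from 0.612-fold to 1.08-fold. Its TPM values were 227 and 126 in the controls, against 127, 160 and 103 in the PRC1 i2KO samples. The 2 controls differed more on this scale than in CPM, which was not particular to Foxp1. Foxj2 was at 76.5 CPM in Control 2 and 3 but at 39.7 and 17.1 TPM. Foxn3 went the other way, at 238 and 297 CPM and at 41.8 and 42.8 TPM. The ratio of count to TPM, which follows the length of the transcripts assigned to a gene, was 0.774, 0.872 and 0.888 times the control mean for Foxp1 in PRC1 i2KO 1, 2 and 3, against 0.968 and 1.03 in Control. For Foxc1 the same ratio lay between 0.950 and 0.980 in PRC1 i2KO and at 1.01 and 0.992 in Control. In the reference annotation the gene model Gm20696 overlaps Foxp1 on the same strand, and it was at 41.9 and 52.3 CPM in Control and at 25.4, 25.2 and 21.9 CPM after PRC1 loss (edgeR adjusted p = 0.200). The sources used here do not say how reads were split between these gene models, so the Foxp1 value is uncertain to that extent.

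Within the forkhead family, levels were compared in TPM. In Control, Foxp1 had a mean of 177 ± 71.5 TPM (SD, n = 2), followed by Foxn3 (42.3 TPM), Foxo3 (35.8 TPM), Foxj2 (28.4 TPM), Foxj3 (27.3 TPM), Foxc1 (26.2 ± 3.59 TPM) and Foxk1 (20.4 TPM). Foxo3 is known as an effector of insulin signalling, and Foxk1 as a regulator of metabolism. Both Foxp1 controls lay above every other forkhead gene in either control. Within each control, Foxo3 was highest and Foxk1 lowest of Foxo3, Foxj2, Foxj3, Foxc1 and Foxk1. Foxo3 and Foxk1 were at 46.1 and 25.7 TPM in Control 2 and at 25.6 and 15.2 TPM in Control 3. Foxj2, Foxj3 and Foxc1 changed order between the 2 controls and cannot be put in order. The same holds for Foxn3 (41.8 and 42.8 TPM in Control 2 and 3) against Foxo3 (46.1 and 25.6 TPM). Of the 10 listed genes only Foxp1 and Foxc1 reached 2 TPM on average in Control, and Foxi3 stood next at 1.68 ± 1.44 TPM.

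**Figure D2:**
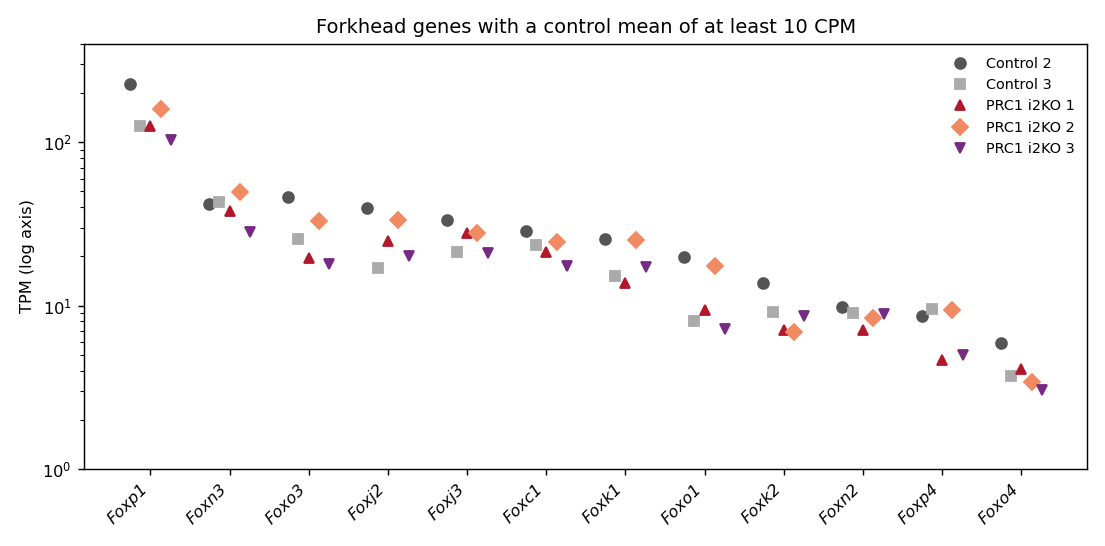
TPM (log axis) in each of the 5 libraries for the 12 forkhead genes with a control mean of at least 10 CPM, in order of their control mean. Foxp1 is at 103 to 227 TPM and Foxc1 at 17.3 to 28.7 TPM, with Control and PRC1 i2KO symbols overlapping for most of the genes.

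Foxq1, Foxf2 and Foxc1 are neighbours in the genome, with Foxf2 between the other two and no further protein-coding gene of the table among them. Their control levels differed widely, and the groups were separated for Foxq1 and Foxf2 but overlapped for Foxc1. Foxf2 (ENSMUSG00000038402.2), a mesenchymal factor, had 6 and 2 counts in Control 2 and 3 and 68, 543 and 120 counts in PRC1 i2KO 1, 2 and 3. This was 0.122 and 0.159 CPM in Control against 3.12, 12.2 and 3.80 CPM in PRC1 i2KO. PRC1 i2KO 2 stood well above the other libraries, and every PRC1 i2KO value was above both controls. The log2 fold change of 5.53 ± 1.01 (SE) had the smallest p of the 10 genes and did not pass (edgeR adjusted p = 0.112), and its fold rests on 8 control counts. Foxq1 (ENSMUSG00000038415.10), known for its part in hair shaft structure, was at 0.731 and 1.11 CPM in Control and at 7.15, 4.92 and 4.93 CPM in PRC1 i2KO. The 3 PRC1 i2KO libraries were close together, with a mean of 5.67 ± 1.28 CPM (SD, n = 3) against 0.921 ± 0.269 CPM (SD, n = 2). The difference was 6.23-fold (95% interval 2.21 to 17.6; edgeR adjusted p = 0.202). On the other side of Foxc1, Gmds, an enzyme gene of fucose synthesis, was at 16.6 and 16.0 CPM in Control and at 21.4, 12.2 and 12.3 CPM after PRC1 loss (adjusted p = 0.958). Exoc2, Gm5447 and Hus1b beyond Foxq1 and Mylk4 and Wrnip1 beyond Gmds were also not separated upwards. Hus1b lay lower in every PRC1 i2KO library (0.0458, 0.135 and 0.0949 CPM, against 0.305 and 0.159 CPM in Control) and was not tested.

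The promoters of Foxc1 and Foxf2 are printed because these neighbours differed widely in Control (means of 146 and 0.140 CPM). That of Foxn1 is printed because its number of CpG dinucleotides is close to the median of all promoters. The sequences are RefSeq promoters of build GRCm38.p6, from 250 bases before to 50 bases after the start, with each CpG in capitals and the rest in lower case. The files' build differs, so these positions serve only to identify the sequence.
Foxc1, chr13:31806396-31806695, plus strand: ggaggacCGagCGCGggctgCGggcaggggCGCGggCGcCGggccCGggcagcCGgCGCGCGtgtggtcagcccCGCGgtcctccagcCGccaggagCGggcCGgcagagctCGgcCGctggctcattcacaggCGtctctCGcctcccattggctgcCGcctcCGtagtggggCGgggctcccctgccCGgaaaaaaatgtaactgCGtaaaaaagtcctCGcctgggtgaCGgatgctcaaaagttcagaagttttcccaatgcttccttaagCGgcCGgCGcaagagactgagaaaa
Foxf2, chr13:31625566-31625865, plus strand: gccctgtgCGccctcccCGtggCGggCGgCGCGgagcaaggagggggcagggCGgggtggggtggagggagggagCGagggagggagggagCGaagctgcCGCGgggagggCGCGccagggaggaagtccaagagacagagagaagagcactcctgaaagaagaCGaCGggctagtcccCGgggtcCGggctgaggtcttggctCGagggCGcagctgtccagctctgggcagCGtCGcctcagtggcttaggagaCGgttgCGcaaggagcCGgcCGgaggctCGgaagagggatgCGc
Foxn1, chr11:78386559-78386858, minus strand: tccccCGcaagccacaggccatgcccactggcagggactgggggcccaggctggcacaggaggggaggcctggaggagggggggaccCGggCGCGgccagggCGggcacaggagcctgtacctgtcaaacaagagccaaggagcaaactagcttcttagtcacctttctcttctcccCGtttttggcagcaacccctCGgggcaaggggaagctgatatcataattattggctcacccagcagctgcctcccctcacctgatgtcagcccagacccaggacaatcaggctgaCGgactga

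The promoter of Foxc1, at over 100 CPM in every library, held 32 CpG, and that of Foxf2, near 0 in Control, held 27. Among 32851 promoters of the table, 9.52% held at least as many CpG as Foxc1 and 15.5% as many as Foxf2, with a median of 7. Foxn1 held 8, and 48.6% of promoters held at least as many. Of the 10 genes, 7 had a promoter in the table, Foxp1 with 3 starts. Foxl2 held 27 CpG, Foxi3 31, Foxd1 15 and the starts of Foxp1 13, 5 and 44. The forkhead core TGTTTAC was searched on both strands and matched none of these 9 sequences, where 3.65% of all promoters held it.

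Foxf1 and Foxc2 lie close together as well, with Mthfsd between them and Foxl1 beyond Foxc2. Foxc2 (ENSMUSG00000046714.7), a factor of lymphatic vessels and mesenchyme, had 29 and 4 counts in Control 2 and 3 and 217, 333 and 122 counts in PRC1 i2KO 1, 2 and 3. It was at 0.589 and 0.317 CPM in Control and at 9.94, 7.51 and 3.86 CPM in PRC1 i2KO, so the groups did not overlap. The difference of 14.9-fold (95% interval 4.57 to 48.6) did not pass (edgeR adjusted p = 0.134). Foxf1 (ENSMUSG00000042812.5), a regulator of lung and gut mesenchyme, had 1 and 0 counts in Control and 4, 91 and 54 counts in PRC1 i2KO. PRC1 i2KO 1 was thus close to the control level, at 0.183 CPM, while PRC1 i2KO 2 and 3 were at 2.05 and 1.71 CPM. The ratio of counts was 94.3, with a 95% counting interval of 16.7 to 3748 that covers counting error only (edgeR adjusted p = 0.240). Mthfsd was at 15.7 and 27.3 CPM in Control and at 9.71, 15.9 and 20.1 CPM in PRC1 i2KO. Foxl1, the third forkhead gene there, stayed at or below 0.285 CPM in every library and was not tested. Map1lc3b, further beyond Foxl1, was at 91.5 and 74.4 CPM in Control and at 129, 110 and 100 CPM in PRC1 i2KO. Its groups did not overlap either (edgeR adjusted p = 0.473). The gene model Gm20388 overlaps both Foxf1 and Foxc2 on the same strand, at 34.3 and 31.1 CPM in Control and 28.5, 25.1 and 23.6 CPM in PRC1 i2KO, so the counts of Foxf1 and Foxc2 are uncertain to the extent that reads were shared with it.

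**Figure D3:**
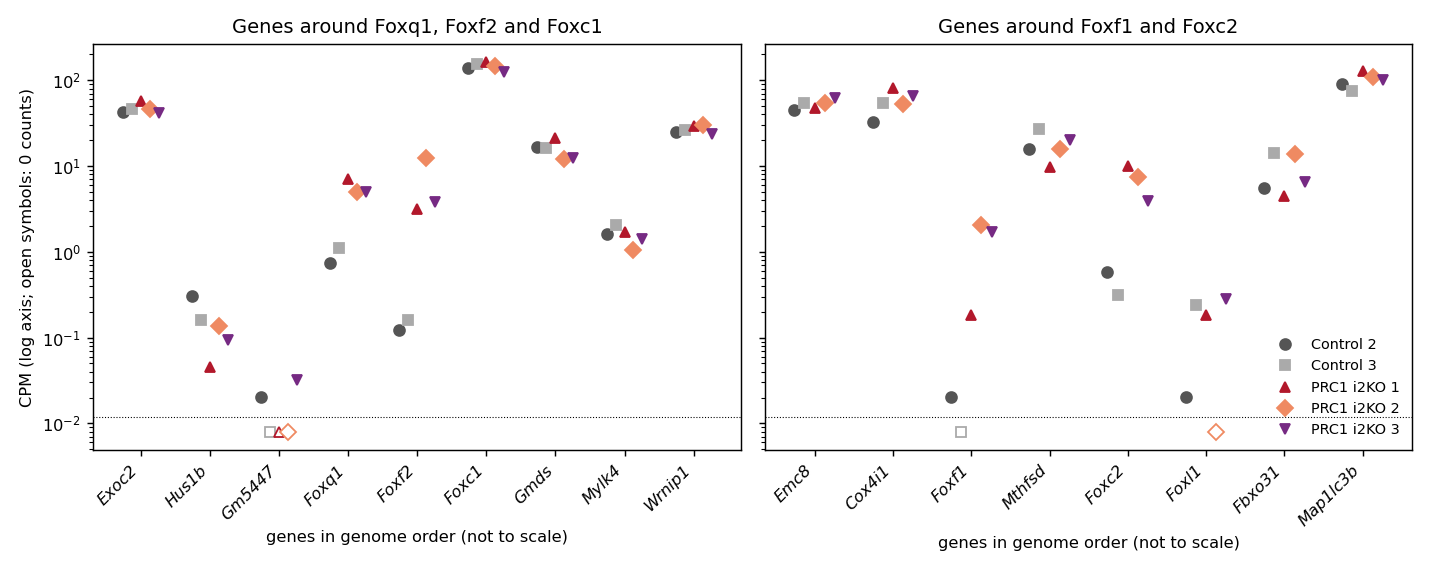
CPM (log axis) in each library for the genes around Foxq1, Foxf2 and Foxc1 (left) and around Foxf1 and Foxc2 (right), in genome order and not to scale, with open symbols for 0 counts. Foxq1, Foxf2, Foxf1, Foxc2 and Map1lc3b have all 3 PRC1 i2KO symbols above both controls, while Foxc1 stays between 124 and 161 CPM and Foxl1 at or below 0.285 CPM.

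Foxl2 and Foxd1 were at or near 0 in most libraries. Foxl2 (ENSMUSG00000050397.4), a factor of ovary and eyelid development, had no count in either control or in PRC1 i2KO 2, 7 counts in PRC1 i2KO 3 and 83 counts in PRC1 i2KO 1. Its level thus came almost wholly from PRC1 i2KO 1, at 3.80 CPM. The PRC1 i2KO mean of 1.34 CPM was 27.7 times the floor of 3 counts over both controls (0.0485 CPM). Without PRC1 i2KO 1 the other libraries stood at 0 and 0.221 CPM. Foxd1 (ENSMUSG00000078302.5), a factor of kidney stroma, had no count in Control or PRC1 i2KO 1, 1 count in PRC1 i2KO 2 and 8 in PRC1 i2KO 3. The Foxd1 mean of 0.0919 CPM in PRC1 i2KO was 1.89 times that floor, and rests almost wholly on PRC1 i2KO 3.

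Foxi3 and Foxn1 varied widely within groups, and their groups overlapped. Foxi3 (ENSMUSG00000055874.6), an ectodermal factor of hair placodes and hair germ, was at 0.568 and 3.17 CPM in Control 2 and 3 and at 11.9, 0.248 and 17.9 CPM in PRC1 i2KO 1, 2 and 3. PRC1 i2KO 1 and 3 were the highest libraries and PRC1 i2KO 2 the lowest of all 5. The log2 fold change was 2.48 ± 1.40 (SE; edgeR adjusted p = 0.576), and without PRC1 i2KO 2 it was 3.07 (adjusted p = 0.187). Without Control 3 it was 4.13 (adjusted p = 0.656). Mki67, a proliferation marker, was also highest in PRC1 i2KO 1 and 3, at 13.2 and 34.0 CPM in Control and 173, 38.1 and 404 CPM in PRC1 i2KO, and the part of cycling cells in the Foxi3 values was not tested. Mitochondrial ribosomal RNA was also highest in PRC1 i2KO 1 and 3. Foxn1 (ENSMUSG00000002057.4), the gene of the nude mouse, was at 0.772 and 3.33 CPM in Control and at 0.229, 0.586 and 1.27 CPM in PRC1 i2KO. Control 3 alone stood apart, and without it the log2 fold change moved from -1.53 (adjusted p = 0.650) to -0.14 (adjusted p = 0.988).

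**Figure D4:**
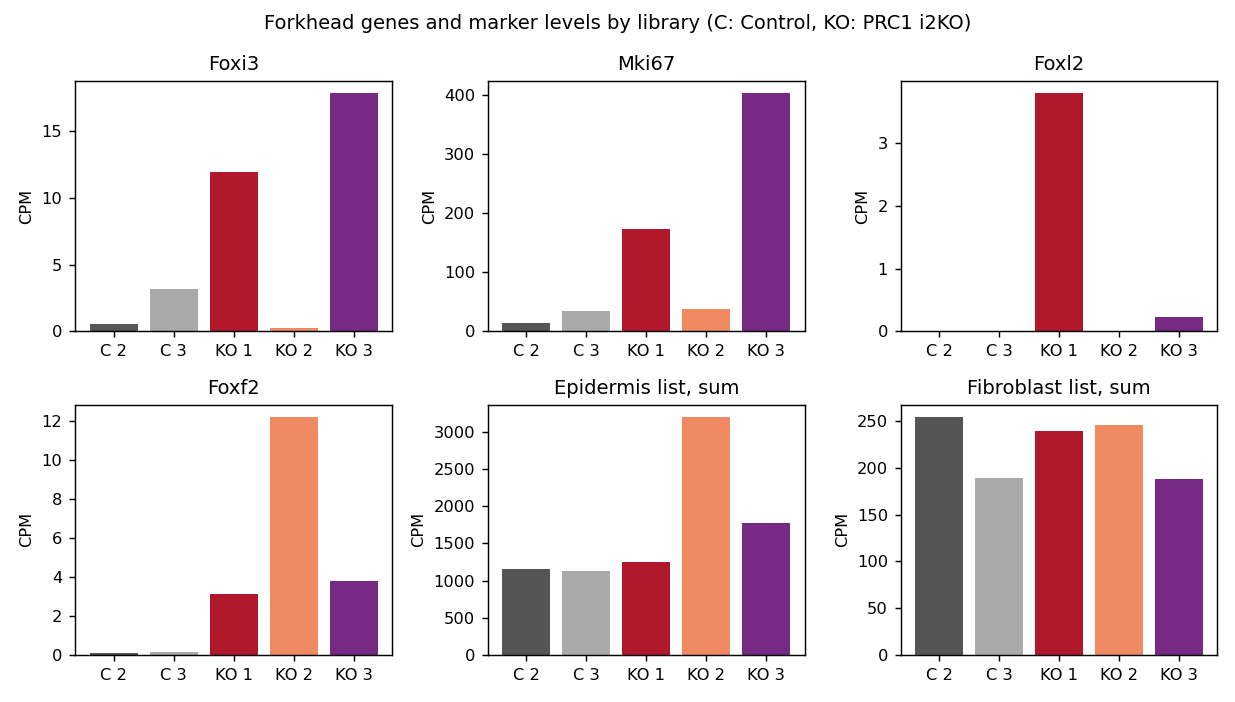
Bars give CPM in each library, 2 Control (C) and 3 PRC1 i2KO (KO), for Foxi3, Mki67, Foxl2 and Foxf2 and for the summed epidermis and fibroblast marker lists. Foxi3 and Mki67 are highest in PRC1 i2KO 3 and then 1, Foxf2 and the epidermis list are highest in PRC1 i2KO 2, Foxl2 is almost confined to PRC1 i2KO 1, and the fibroblast sum, mostly Col6a1 and Col6a2, overlaps between groups.

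Because Foxf1, Foxf2, Foxc2, Foxd1 and Foxl2 are best known from other cell types, markers of those cells were read in the same libraries. Of 26 fibroblast and dermal papilla markers, 23 were in the table and 14 were tested, with 0 called (unadjusted p under 0.05, 6 higher and 1 lower, beside 7.43% and 3.51% of all genes) and a median log2 fold change of 1.97. Of the 14, 4 (Twist1, Sox2, Alx4 and Fbn1) passed the filter only through PRC1 i2KO libraries, so the median and the count of higher genes give no support for a shift. Their summed level was 189 to 255 CPM in Control and 188 to 246 CPM in PRC1 i2KO, and was mostly Col6a1 (103 and 79.0 CPM in the controls, against 80.6, 87.0 and 51.1 CPM) and Col6a2 (110 and 62.9 CPM, against 65.0, 52.9 and 41.2 CPM). Col3a1, Twist1, Twist2, Sox2, Lox and Prrx2 had no count in either control. The markers went different ways in PRC1 i2KO. Of the tested, 5 (Pdgfra, Col1a1, Thy1, Sox2 and Alx4) lay above both controls in every PRC1 i2KO library, as did 14.6% of all genes tested. Lum (at most 0.158 CPM), Col3a1 (0.271), Twist2 (0.348) and Prrx1 (0.253) stayed near 0, and Dcn reached 3.13 CPM in PRC1 i2KO 3. PRC1 i2KO 2, with the most Foxf2 (12.2 CPM) and Foxf1 (2.05 CPM), also had the most Col1a1 (19.7 CPM), Lox (1.58 CPM, with no count in the other libraries) and Twist1 (0.519 CPM). Other markers of the list peaked elsewhere. Dcn, Vcan, Fbn1, Thy1 and Alx4 were highest in PRC1 i2KO 3, and Pdgfra, Crabp1 and Sox2 in PRC1 i2KO 1. Pdgfra, a receptor of mesenchymal cells, was at 3.37 and 2.22 CPM in Control and at 32.5, 25.4 and 16.0 CPM after PRC1 loss (edgeR adjusted p = 0.0502), and Col1a1 at 3.41 and 2.94 CPM against 11.2, 19.7 and 7.88 CPM (adjusted p = 0.215). Thy1, a surface protein of fibroblasts and other cells, was at 1.73 and 3.73 CPM against 6.23, 5.46 and 18.9 CPM. Sox2 had no control count and stayed below 0.6 CPM (adjusted p = 0.290), and Alx4 was at most at 1.68 CPM (adjusted p = 0.366). The part of mesenchymal cells in the Foxf1, Foxf2 and Foxc2 values was not tested.

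Of 20 endothelial, mural and muscle markers, 15 were in the table and 8 tested, with 0 called and a median of 0.14. At an unadjusted p under 0.05, 1 was higher and 1 lower, beside 7.43% and 3.51% of all genes. The sum of the 15 markers, 262 to 269 CPM in Control and 229 to 256 CPM in PRC1 i2KO, was mostly Cspg4. Kdr, a vessel receptor, was at 0.386 and 1.35 CPM in Control and at most at 0.183 CPM in PRC1 i2KO. Prox1, a lymphatic factor that passed the filter only through PRC1 i2KO libraries, had no control count and was at 1.28, 1.44 and 2.85 CPM after PRC1 loss (adjusted p = 0.141). The 15 markers of interfollicular and differentiating epidermis all had a positive log2 fold change, with a median of 1.31, and 1 of them passed the filter only through PRC1 i2KO libraries. None was called. At an unadjusted p under 0.05, 5 were higher and 0 lower, beside 7.43% and 3.51% of all genes. Of the 15, 5 lay above both controls in every PRC1 i2KO library (14.6% of all genes did). The 15 markers summed to 1155 and 1125 CPM in Control and to 1251, 3207 and 1775 CPM in PRC1 i2KO, highest in PRC1 i2KO 2 as Foxf2 was. By smallest p they were led by Ly6d (adjusted p = 0.164), Casp14 (0.224), Krtdap (0.232) and Krt1 (0.270). Their part in the Foxf2 value was not tested.

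Of the other forkhead genes, 23 were in the table and 19 were tested, with 0 called and a median log2 fold change of 0.12 (unadjusted p under 0.05, 3 higher and 0 lower, beside 7.43% and 3.51% of all genes). Foxd2 and Foxe1, 2 of these 3, passed the filter on low counts only through PRC1 i2KO libraries and could be tested only if higher there. For the 14 with a control mean of at least 1 CPM the median was -0.01 and the range -0.95 to 3.12. Foxm1, a driver of mitotic genes, stood at the upper end, at 1.02 and 1.75 CPM in Control and at 16.8, 6.97 and 11.6 CPM in PRC1 i2KO (log2 fold change 3.12 ± 0.60 SE, edgeR adjusted p = 0.134). Foxd2 had no control count and 38, 71 and 10 counts in PRC1 i2KO, a mean 25.2 times the same floor (edgeR adjusted p = 0.206). Foxe1, a thyroid and hair follicle factor, had 1 control count and 24, 8 and 25 counts in PRC1 i2KO. The ratio of its counts was 36.1, counting interval 6.22 to 1449 (edgeR adjusted p = 0.314). Foxj2 was at 76.5 CPM in Control 2 and 3 and at 107, 99.0 and 89.4 CPM after PRC1 loss (adjusted p = 0.530), and Foxo6 overlapped between groups (adjusted p = 0.623). Of the 19, 4 (Foxm1, Foxd2, Foxe1 and Foxj2) lay higher in CPM in every PRC1 i2KO library and 1 (Foxr1) lower. Of all genes tested, 14.6% and 15.3% did. In TPM the Foxj2 groups overlapped (39.7 and 17.1 TPM in Control, against 24.9, 33.3 and 20.0 TPM in PRC1 i2KO).

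**Figure D5:**
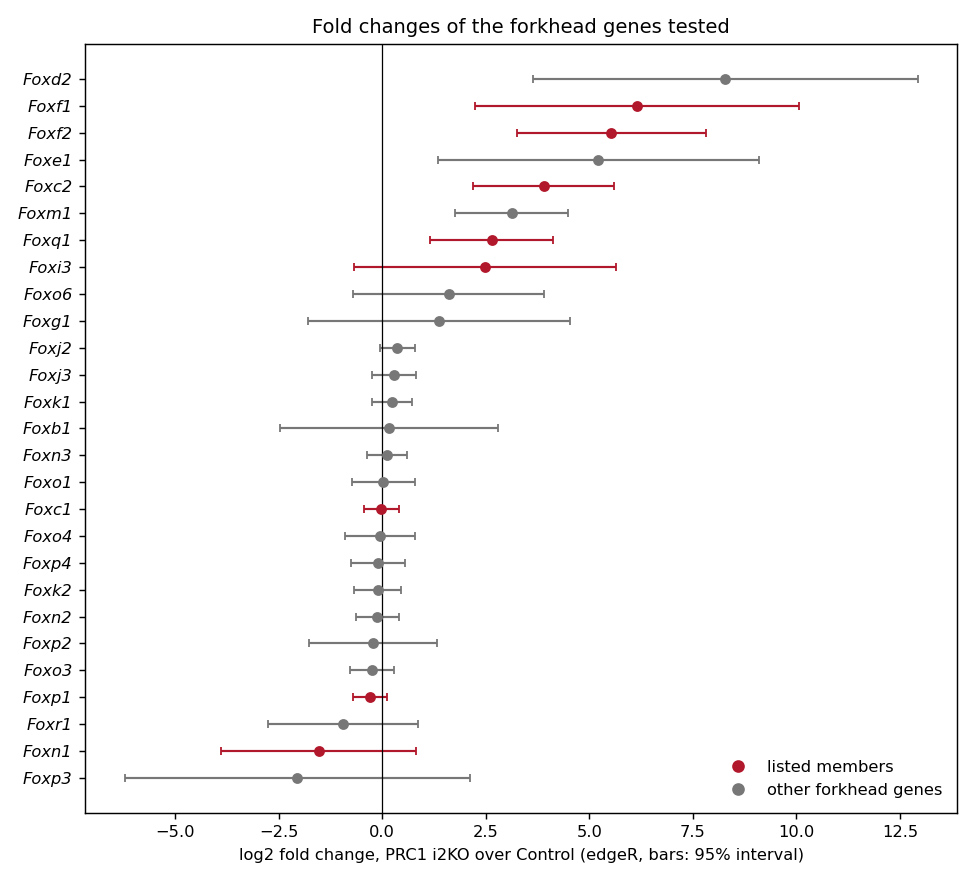
Log2 fold change of PRC1 i2KO over Control for the 27 forkhead genes tested, with 95% intervals from the edgeR fit (listed members in red, others in grey). Foxc1 at -0.02 and Foxp1 at -0.30 have narrow intervals around 0, and the intervals of Foxq1, Foxc2, Foxf2 and Foxf1 lie above 0 before adjustment over all genes.

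Genes that act beside Foxc1 and Foxp1 in quiescence were read from a list of BMP pathway members and partners. Of 30 genes, 29 were tested and 0 called, with a median log2 fold change of 0.10 (unadjusted p under 0.05, 3 higher and 3 lower, beside 7.43% and 3.51% of all genes). Nfatc1, a quiescence factor linked to Foxc1, was at 348 and 466 CPM in Control and at 346, 284 and 362 CPM in PRC1 i2KO. Fgf18, a quiescence ligand linked to Foxp1, was at 46.3 and 54.4 CPM in Control and at 25.9, 12.2 and 20.6 CPM in PRC1 i2KO, without overlap (edgeR adjusted p = 0.188). Bmp4, a ligand that favours quiescence, was at 1.52 and 0.714 CPM in Control and at 13.3, 10.6 and 9.58 CPM after PRC1 loss (adjusted p = 0.0936). Prlr, the prolactin receptor, was at 437 and 351 CPM against 228, 315 and 204 CPM (adjusted p = 0.308), and Ccnd1, a G1 cyclin, at 108 and 105 CPM against 206, 153 and 146 CPM (adjusted p = 0.284).

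Genes of the hair lineages in which Foxn1, Foxq1 and Foxi3 act were read from a list of 34, of which 27 were in the table and 23 were tested. Cux1, a transcription factor of the inner root sheath, rose from 22.6 and 20.9 CPM to 99.0, 111 and 93.4 CPM (edgeR adjusted p = 0.0100), and it was the 1 gene called, where 0.126% of all genes were called as higher. The list's median was 0.54, with 6 genes higher and 0 lower at an unadjusted p under 0.05, beside 7.43% and 3.51% of all genes. Edar, Krt27 and Krt28 passed the filter only through PRC1 i2KO libraries. Hoxc13, a regulator of hair keratins and of Foxq1 and Foxn1, was at 37.6 and 37.4 CPM in Control and at 63.3, 36.0 and 30.2 CPM in PRC1 i2KO. Lef1, the WNT effector of hair germ, was at 14.2 and 28.3 CPM in Control and at 64.8, 45.7 and 66.0 CPM after PRC1 loss (adjusted p = 0.177), Msx1 at 4.81 and 6.35 CPM against 31.1, 22.8 and 14.3 CPM (0.150), and Wnt10a at 5.66 and 2.94 CPM against 16.8, 16.4 and 14.7 CPM (0.177).

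The genes most like Foxc1, Foxp1 and Foxf2 over the 5 libraries were found by the smallest root mean square difference in log2 CPM from the control mean, among genes within 2-fold of the same control level. Closest to Foxc1 were Cast (0.0284), Itch (0.0337) and Fbxo11 (0.0468) of 1721 candidates. Closest to Foxp1 were Arhgef12 (0.0342), Ptprf (0.0371) and Plxnb1 (0.0442) of 531. Closest to Foxf2 were Tcf24 (0.621), Trank1 (0.659) and Klk8 (0.776) of 1032, a looser match. Trank1, for example, was at 0.162 and 0.159 CPM in Control and at 5.41, 10.6 and 10.2 CPM in PRC1 i2KO.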

How the data were processed

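Polyadenylated RNA was sequenced from 5 samples, and the authors deposited 1 table of expected counts and TPM values. Per the submitters' processing notes, STAR 2.7.9a, RSEM 1.3.3, DESeq2 1.38.2 and build mm39 were used, with no roles given, and the sources used here do not give the strand setting. The deposited expected counts (60.4% not whole) were rounded. The authors' TPM values, which allow for transcript length, were tested as log2(TPM + 1) with limma 3.58.1 (trend) over 17191 genes with at least 1 TPM in 2 libraries.

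Samples were grouped and numbered by their titles, which number the controls 2 and 3, whereas the descriptions number the same samples C1 and C2. No label says that each sample is another animal: p-values then measure only how these samples spread, which may be technical. All genes were fitted together with edgeR 4.0.16 in R 4.3.3 (filterByExpr, here 0.288 CPM in 2 libraries, TMM, quasi-likelihood F test, group only), with Benjamini-Hochberg adjustment over all 22181 genes. DESeq2 1.42.0, limma-voom and the other settings of the closing section were alternatives. The functions were tested on simulated counts. Gene order and overlaps come from GENCODE M21 (30832 of 30840 features matched), whose build differs from mm39, so no gene coordinates are given. The forkhead genes and the lists were chosen with earlier results of these data known. All 10 were named. Also named were, of other forkhead genes, those past the threshold, the 5 of smallest p and the 5 of highest control TPM, and of the lists, those past the threshold and the 4 of smallest p, given for the lists that bear on these genes. Other names (Nfatc1, Hoxc13, neighbours, cell type markers) were added after their values were seen.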

Additional observations from a re-analysis of the deposited data

How the results depend on the processing

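None of the 10 forkhead genes passed edgeR's test, and 0 passed with RLE size factors, limma-voom, without mitochondrially encoded features, with the replicate block by description or when any library was left out. DESeq2 called 4 of them, edgeR without a filter on low counts 2 (Foxf2 and Foxc2) and the replicate block by title 1 (Foxf2, adjusted p = 0.0166). On the log2(TPM + 1) scale 0 passed, also with a pseudocount of 0.1, without a filter or with any library left out. Other forkhead genes called numbered 2 by DESeq2 (Foxm1 and Foxd2) and 1 each (Foxm1) without a filter and with the replicate block by title.

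Over all genes, 28 were higher and 0 lower. The counts were 140 and 12 without a filter, 754 and 166 by DESeq2, 4 higher by limma-voom, 140 and 25 with the replicate block by title and 10 higher with the block by description. Leaving out a library in turn gave 4 (without Control 2), 8 (without Control 3), 8 (without PRC1 i2KO 1), 14 (without PRC1 i2KO 3) and 39 (without PRC1 i2KO 2) higher, and 0 to 4 lower. The cause was not tested, and in fits with 1 control that control is assumed to vary like the PRC1 i2KO group. The 2 blocks differ because titles call the controls 2 and 3 and descriptions call them C1 and C2. Samples share title numbers, but their deviations from group means correlated at 0.0645 for number 2 and 0.0409 for number 3, with 2 pairs only, so pairing is not established.

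The sign of Foxc1 turned without Control 3 (0.068), without PRC1 i2KO 3 (0.075) and with the replicate block by description (0.0775), never past the threshold; over all 12 alternatives its log2 fold change lay between -0.11 and 0.0775. Foxp1 lay between -0.43 and -0.14. Foxq1 lay between 2.35 and 2.96, Foxc2 between 3.59 and 4.47 and Foxf2 between 4.62 and 5.87, with adjusted p up to 0.841, 0.676 and 0.783 without Control 2. Foxf1 was not tested in 2 of the 12. Control 3, with the fewest counts, limits what can be read for genes below 1 CPM.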

Other observations

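The protein-coding genes on either side of Foxp1 were read by the same rule as for the other forkhead genes, 3 on each side. Eif4e3, a translation factor gene, was at 4.97 and 3.73 CPM in Control 2 and 3 and at 27.9, 14.2 and 22.4 CPM in PRC1 i2KO 1, 2 and 3 (log2 fold change 2.29 ± 0.42 SE, edgeR adjusted p = 0.113). Gpr27, an orphan receptor gene, had no control count and was at 1.70, 2.19 and 3.92 CPM after PRC1 loss (adjusted p = 0.109). Gpr27 thus passed the filter on low counts only through PRC1 i2KO libraries and could be tested only if higher there. Mitf, the melanocyte regulator, was at 196 and 153 CPM in Control and at 102, 123 and 75.9 CPM after PRC1 loss (adjusted p = 0.258), and Frmd4b overlapped between groups (adjusted p = 0.710). None of these genes passed.

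Beside Foxd1, Tmem171 had no control count and was at 0.0917, 1.44 and 0.348 CPM after PRC1 loss (adjusted p = 0.321). Tmem171 also passed the filter only through PRC1 i2KO libraries and could be tested only if higher there. Beside Foxi3, Thnsl2 was at 0.548 and 2.06 CPM in Control and at 4.03, 4.15 and 2.44 CPM after PRC1 loss (adjusted p = 0.563), without overlap between groups.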
